A study of Homo sapiens with 8 samples.

Results

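The 10 genes named for this account encode the calcium pumps, calcium release channels and store-operated calcium entry proteins of human cells, and they were taken by symbol as a functional set, with earlier results of these data known. They comprise the endoplasmic reticulum pump ATP2A2, the plasma membrane pumps ATP2B1 and ATP2B4, the inositol trisphosphate (IP3) receptors ITPR1, ITPR2 and ITPR3, the store sensors STIM1 and STIM2, and the entry channel subunits ORAI1 and ORAI3. A row was found for 9 of the 10 among 55679 gene identifiers, and ORAI1 was not analysed here. The RNA came from 2 lines of triple-negative breast cancer (TNBC), MDA-MB468 and BT549, and was sequenced as 8 libraries with 1 library per condition. In each line, parental cells and CE cells were sampled as control cells and after 1 μmol/L Acetalax (oxyphenisatin acetate, a laxative drug with activity against TNBC cells) for 6 hours. The CE cells, which the study describes as resistant clones, came from chronic exposure to Acetalax up to 40 μmol/L and had been drug-free for 2 weeks, also before the CE control library was made. The study describes control cells as without drug, and a vehicle is not given in the sources used here. A line in a given state (parental or CE) is called a background below, and there are 4.

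Cells keep calcium low in the cytosol and high in the endoplasmic reticulum. The SERCA pump ATP2A2 fills the endoplasmic reticulum store, and the PMCA pumps ATP2B1 and ATP2B4 push calcium out across the plasma membrane. IP3 receptors open when phospholipase C makes IP3 and let the store empty into the cytosol or towards mitochondria. STIM1 and STIM2 sense the loss of calcium in the store and open ORAI channels in the plasma membrane, which refills it. Epithelial cells use this cycle for secretion, growth signals and the control of cell death, and emptying of the store also disturbs protein folding there.

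The shallowest library held 42261122 counts on genes, the deepest 54241728. Levels are given as CPM, a gene's counts scaled to an equal library total of 1000000 counts on genes, and, for comparisons between genes, as FPKM, which also divides by gene length. Intervals given beside levels (Wilson) and beside log2 ratios (Clopper-Pearson, conditional on the sum of both counts) are at 95% and cover counting error only. The labelled cell type was compared with marker genes. PGR was at 0 in all 4 MDA-MB468 libraries and at 0 to 0.627 CPM in BT549. ESR1 was at 3.50 to 5.15 CPM in MDA-MB468 and 0 to 0.184 CPM in BT549, and ERBB2 was at 41.2 to 95.2 CPM over the 8 libraries. The summed level of 6 epithelial markers was 4765 to 8529 CPM in MDA-MB468 and 5.61 to 83.6 CPM in BT549, and that of 4 mesenchymal markers was 15.4 to 55.5 CPM and 1624 to 3353 CPM. Of the leukocyte markers, CD14 was at 6.33 to 47.2 CPM in MDA-MB468 and 0.734 to 2.55 CPM in BT549, PTPRC reached at most 0.756 CPM, and CD3E was at 0 in all 8 libraries. In MDA-MB468, CD14 was lower after Acetalax, at 47.2 and 20.4 CPM before and after it in parental and 13.8 and 6.33 CPM in CE cells. Of the endothelial markers with a row, VWF reached at most 0.317 CPM, and CDH5 was at 0 in all BT549 libraries. In MDA-MB468, CDH5 was higher after Acetalax, at 0.740 and 3.21 CPM in parental and 3.90 and 8.01 CPM in CE cells. ERBB2 was lower after Acetalax in each background, with 88.0 and 44.5 CPM in MDA-MB468 parental and 59.0 and 41.2 CPM in BT549 parental cells. In MDA-MB468, KRT17 was at 374 and 1217 CPM in parental and 270 and 1128 CPM in CE cells. KRT5 was at 1027 and 1827 CPM and at 935 and 1618 CPM there. Of the other epithelial markers in MDA-MB468, only CDH1 was lower after Acetalax, and only in CE cells (155 and 147 CPM). The part of CD14, CDH5 and these markers in the member levels was not tested. In bulk RNA, fewer cells that express a gene and less RNA per cell cannot be told apart. As each condition is a single library, a difference between 2 conditions of a line has no replicate check, and the tests below use the backgrounds or the lines as replicates.

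ATP2A2 was the only member that was higher after Acetalax in all 4 backgrounds. Larger ratios were seen for ATP2B4 in both MDA-MB468 backgrounds and for ATP2B1 in BT549 CE cells, as given below. In MDA-MB468, ATP2A2 was at 338 CPM in parental control cells, 525 after Acetalax, 358 in CE control cells and 462 in CE cells after Acetalax. The BT549 libraries had 425 and 514 CPM in parental control and treated cells and 456 and 722 CPM in CE control and treated cells. The treated library was above its control in each background, with log2 ratios of CPM of 0.64 (interval 0.61 to 0.66) in MDA-MB468 parental cells, 0.37 (interval 0.34 to 0.40) in MDA-MB468 CE cells, 0.28 (interval 0.25 to 0.30) in BT549 parental cells and 0.66 (interval 0.64 to 0.69) in BT549 CE cells. These ratios correspond to folds of 1.21 to 1.58. ATP2A2 (ENSG00000174437) lies on the plus strand of chromosome 12 from 110718561 to 110788898 (positions of members are in hg19). In edgeR's quasi-likelihood test over the 4 backgrounds, the fitted log2 fold change of ATP2A2 was 0.58 (SE 0.101, adjusted p = 0.0376).

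The same test called 984 of 19693 genes (5.00%) at an adjusted p under 0.05, with 536 higher (2.72%) and 448 lower (2.27%). Among the members it called 2 of 9, ATP2A2 upward and ORAI3 downward. Scaled to total counts in place of TMM (edgeR's trimmed mean scaling), the split over all genes was 374 higher and 685 lower, and the median over all genes tested went from -0.04 to -0.13. ATP2A2 and ORAI3 were called under all 3 scalings. Neither call held without any 1 of the 4 backgrounds: the adjusted p of ATP2A2 was 0.0671 without BT549 CE, 0.0532 without BT549 parental, 0.0536 without MDA-MB468 CE and 0.178 without MDA-MB468 parental cells, and that of ORAI3 was 0.0878, 0.0556, 0.0737 and 0.184 in the same order.

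The promoter of ATP2A2 is shown because this member rose together with HSPA5 and HSP90B1, 2 endoplasmic reticulum chaperone genes known to be induced through an element called ERSE (CCAAT and CCACG with 9 bases of any kind between them) when folding in the endoplasmic reticulum fails. Sequences are from RefSeq (GRCh38.p14), 250 bases before to 50 bases after an annotated start site, given 5′ to 3′ along the gene. Of 2 such windows of ATP2A2, the window at chr12:110280997-110281296 (plus strand, GC 78%) is printed with the letters that match the outer parts of the element in capitals, which begin 63 bases before the start site.

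ATP2A2: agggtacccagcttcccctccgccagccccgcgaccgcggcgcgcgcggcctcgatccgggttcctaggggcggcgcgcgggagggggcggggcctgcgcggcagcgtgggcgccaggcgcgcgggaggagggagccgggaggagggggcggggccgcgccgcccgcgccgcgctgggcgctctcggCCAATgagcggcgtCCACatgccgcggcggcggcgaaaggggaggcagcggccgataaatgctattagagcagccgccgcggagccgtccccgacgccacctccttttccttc

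The stretches with these outer parts in ATP2A2 (chr12:110281184-110281202), HSPA5 (chr9:125241391-125241409) and HSP90B1 (chr12:103930216-103930234 along the gene and chr12:103930321-103930339 on the opposite strand) read as follows, with positions 1 to 5 and 15 to 19 of the element in capitals.

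ATP2A2: CCAATgagcggcgtCCACA
HSPA5: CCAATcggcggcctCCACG
HSP90B1, along the gene: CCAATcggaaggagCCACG
HSP90B1, opposite strand: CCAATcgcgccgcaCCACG

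The ATP2A2 stretch differs from the element by G19A, counted from 1 at its first C, so ATP2A2 holds the element only without its last letter. That shortened form was chosen after the sequence had been seen. On either strand, the full element was in 0.0769% of 35116 windows and in none of the 13 windows of 8 members, and the shortened form was in 0.316% of windows and in 1 member window, that of ATP2A2. The related ERSE-II (ATTGG and CCACG with 1 base between them, in 0.0541% of windows), the AP-1 site (TGANTCA, 7.71%) and the cyclic AMP element (TGACGTCA, 1.85%) matched no member window. CCACG on its own was in 38.1% and CCAAT in 34.6% of windows. ITPR2 had no window in the table. A match is a description of letters, and its part in the RNA level was not tested.

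**Figure D1:**
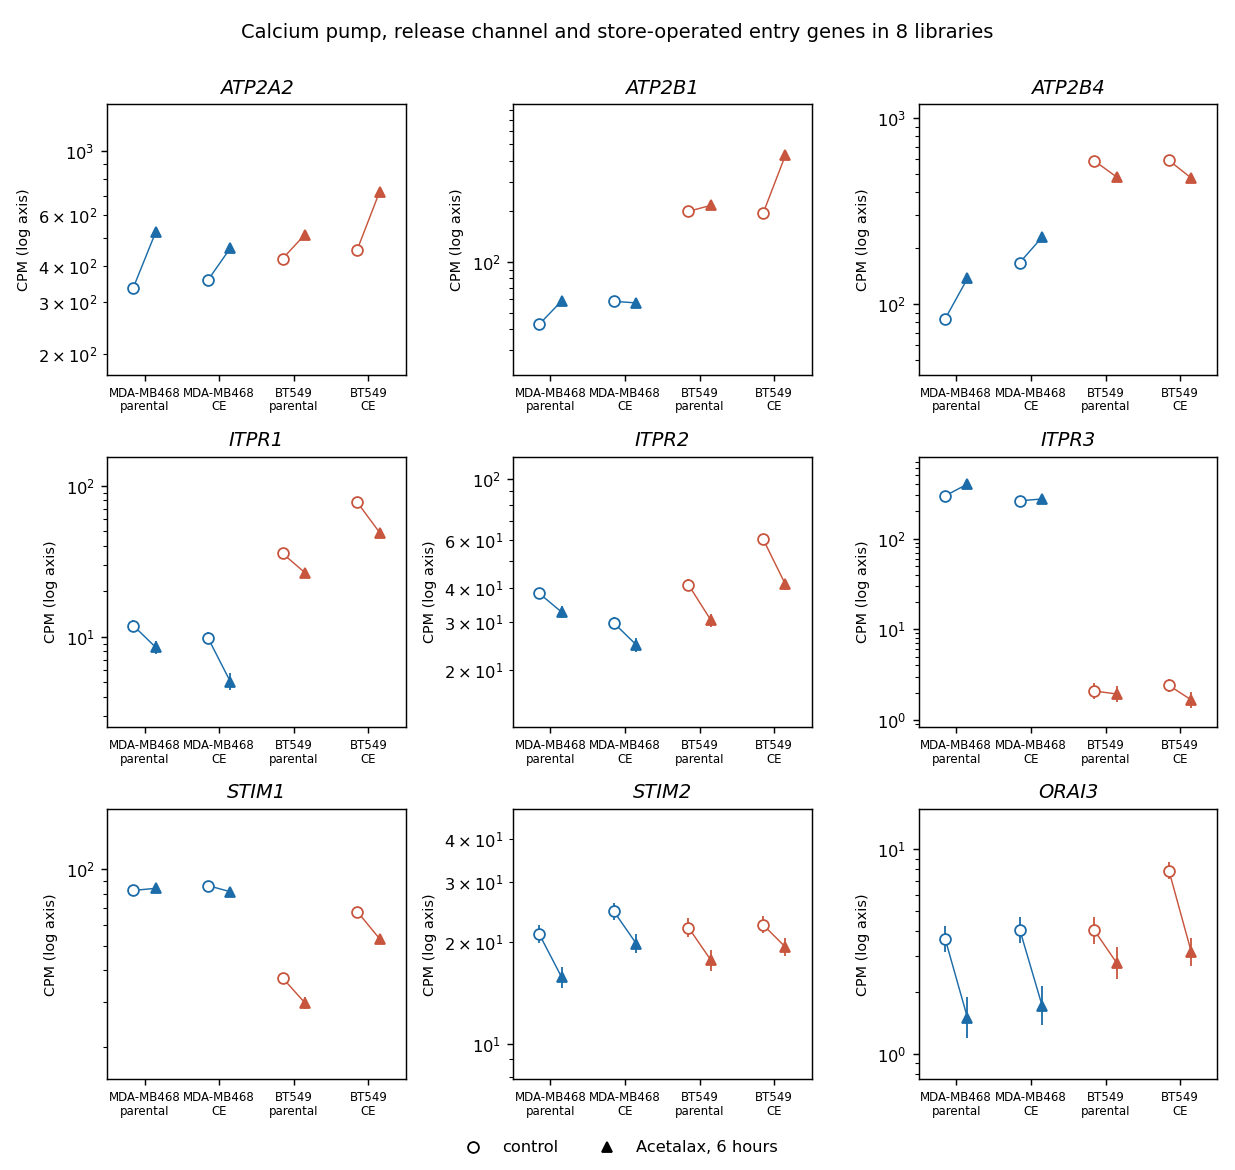
CPM of the 9 members (vertical log axis, a separate range for each gene) in the 4 backgrounds (horizontal axis), with open circles for control and filled triangles for Acetalax-treated libraries, 1 library each, and bars for the 95% Wilson counting interval. ATP2A2 is higher and ORAI3, ITPR1, ITPR2 and STIM2 are lower after Acetalax in each of the 4 backgrounds.

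ATP2B1 (ENSG00000070961, minus strand of chromosome 12 from 89981828 to 90103077), a plasma membrane pump found in most tissues, was higher after Acetalax in 3 of 4 backgrounds and most so in BT549 CE cells. In MDA-MB468, ATP2B1 was at 42.6 CPM in parental control cells, 58.6 after Acetalax, 58.3 in CE control cells and 57.1 in CE cells after Acetalax. The BT549 libraries had 200.2 and 217 CPM in parental control and treated cells and 195 and 432 CPM in CE control and treated cells. BT549 CE cells after Acetalax stood apart from all other libraries, at 2.22 times their control. The log2 ratios were 0.46 in MDA-MB468 parental, -0.03 in MDA-MB468 CE, 0.12 in BT549 parental and 1.15 (interval 1.12 to 1.18) in BT549 CE cells, and the MDA-MB468 CE value was 0.04 with TMM scaling. Over the 4 backgrounds the fitted change of 0.51 (SE 0.197, adjusted p = 0.143) did not pass the test, but it passed without a filter (adjusted p = 0.000604). The difference of the Acetalax effect between lines was 0.47 (SE 0.343, adjusted p = 0.525) and did not pass either, but with BT549 parental cells left out it was 1.01 (adjusted p = 0.0208), and with BT549 CE cells left out it was -0.09 (adjusted p = 0.957).

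ATP2B4 (ENSG00000058668, plus strand of chromosome 1 from 203595689 to 203713209), another plasma membrane pump, had log2 ratios of opposite sign in the lines. In MDA-MB468, ATP2B4 was at 83.3 CPM in parental control cells, 138 after Acetalax, 167 in CE control cells and 229 in CE cells after Acetalax. The BT549 libraries had 590.3 and 483 CPM in parental control and treated cells and 593 and 476 CPM in CE control and treated cells. Acetalax-treated MDA-MB468 cells were above their controls, with log2 ratios of 0.72 (interval 0.67 to 0.78) in parental and 0.45 (interval 0.41 to 0.50) in CE cells. Treated BT549 cells were below theirs, with -0.29 (interval -0.32 to -0.26) in parental and -0.32 (interval -0.34 to -0.29) in CE cells. The difference between lines, tested as an interaction with parental and CE cells as the replicates, was -0.84 (SE 0.140, adjusted p = 0.0420). Such a difference was called for 351 of 19693 genes (1.78%), and for 1.25% of genes in the direction of ATP2B4. ATP2B4 was the only member called. The difference was -0.96 (adjusted p = 0.0954) without MDA-MB468 CE cells and -0.70 (adjusted p = 0.231) without MDA-MB468 parental cells, and it stayed under an adjusted p of 0.05 without either BT549 background (-0.87 and -0.83). Over the 4 backgrounds together ATP2B4 had a fitted change of 0.23 (SE 0.174, adjusted p = 0.424).

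In BT549 CE cells the scaling matters: the median log2 ratio over the 11135 genes that averaged 5 CPM or more was -0.18 with total counts and -0.02 with TMM, whereas in the other 3 pairs TMM moved the median by less than 0.1. Relative to the median of all genes in that pair, ATP2B4 was at -0.14, ATP2A2 at 0.84 and ATP2B1 at 1.33, so these members kept their direction.

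The plasma membrane pumps ATP2B1 and ATP2B4 were compared per length, without ATP2B2 and ATP2B3, which are not members. Of the summed FPKM of ATP2B1 and ATP2B4, ATP2B1 made up 33.8% in MDA-MB468 parental control cells and 25.3% in BT549 parental control cells. In BT549 CE cells its share was 24.7% in control and 47.5% in treated cells. With the longest annotated transcript as the length these BT549 CE shares were 28.8% and 52.7%.

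The IP3 receptor genes included ITPR3, the member that differed most between the lines. The fitted line difference of ITPR1 was next in size but close to that of ATP2B1 (2.36, SE 0.243). Without the CE control libraries, ATP2B1 was ahead, with 2.50 against 2.30 for ITPR1. ITPR1 was ahead of ATP2B1 with any other condition left out. Without the CE Acetalax libraries, however, ATP2B4 was ahead of both, with 2.28 against 2.19 for ITPR1. In MDA-MB468, ITPR3 was at 296 CPM in parental control cells, 399.9 after Acetalax, 261 in CE control cells and 274 in CE cells after Acetalax. The BT549 libraries had 2.08 and 1.93 CPM in parental control and treated cells and 2.40 and 1.66 CPM in CE control and treated cells. ITPR3, the receptor typical of epithelial and secretory cells, was thus at 261 CPM or more in each MDA-MB468 library and at 2.40 CPM or less in each BT549 library, where 84 to 130 counts were seen. Its lowest and highest levels over the 8 libraries differed 241-fold. The fitted line difference was -7.07 (SE 0.235, adjusted p = 0.00000991) on the log2 scale. ITPR3 (ENSG00000096433, plus strand of chromosome 6 from 33588142 to 33664351) shares 10.4% of its exon bases with UQCC2 on the opposite strand, which reached 55.3 CPM.

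In MDA-MB468, ITPR1 was at 11.9 CPM in parental control cells, 8.52 after Acetalax, 9.85 in CE control cells and 5.05 in CE cells after Acetalax. BT549 cells had 35.7 CPM in parental control, 26.6 in parental treated, 77.8 in CE control and 49.0 in CE treated cells. ITPR1 (ENSG00000150995, plus strand of chromosome 3 from 4535032 to 4889524), the receptor best known from neurons, was lower than ITPR3 in every MDA-MB468 library and higher than it in every BT549 library. All 4 BT549 libraries were above all 4 MDA-MB468 libraries for ITPR1, with a line difference of 2.53 (SE 0.385, adjusted p = 0.00200). In MDA-MB468, ITPR2 was at 38.1 CPM in parental control cells, 32.6 after Acetalax, 29.7 in CE control cells and 24.7 in CE cells after Acetalax. In BT549 the same 4 conditions gave 41.0, 30.5, 60.2 and 41.1 CPM. ITPR2 (ENSG00000123104, minus strand of chromosome 12 from 26490342 to 26986131), a broadly expressed receptor, had overlapping levels in the lines and a line difference of 0.60 (SE 0.242, adjusted p = 0.0730), which did not pass the test (adjusted p = 0.0463 without the parental Acetalax libraries).

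Per length, ITPR3 made up 90.6 to 94.0% of the summed FPKM of the 3 IP3 receptors in MDA-MB468 and 3.47 to 6.09% in BT549. In BT549, ITPR2 held 61.9 to 69.1% and ITPR1 25.7 to 34.6% when the length was all annotated exons merged. With the longest transcript, ITPR1 held 50.6 to 60.9% and ITPR2 37.2 to 46.1% there, since the merged exons of ITPR1 are 3.24 times its longest transcript. The order of ITPR1 and ITPR2 in BT549 thus depends on the length chosen, and the place of ITPR3 in either line does not.

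**Figure D2:**
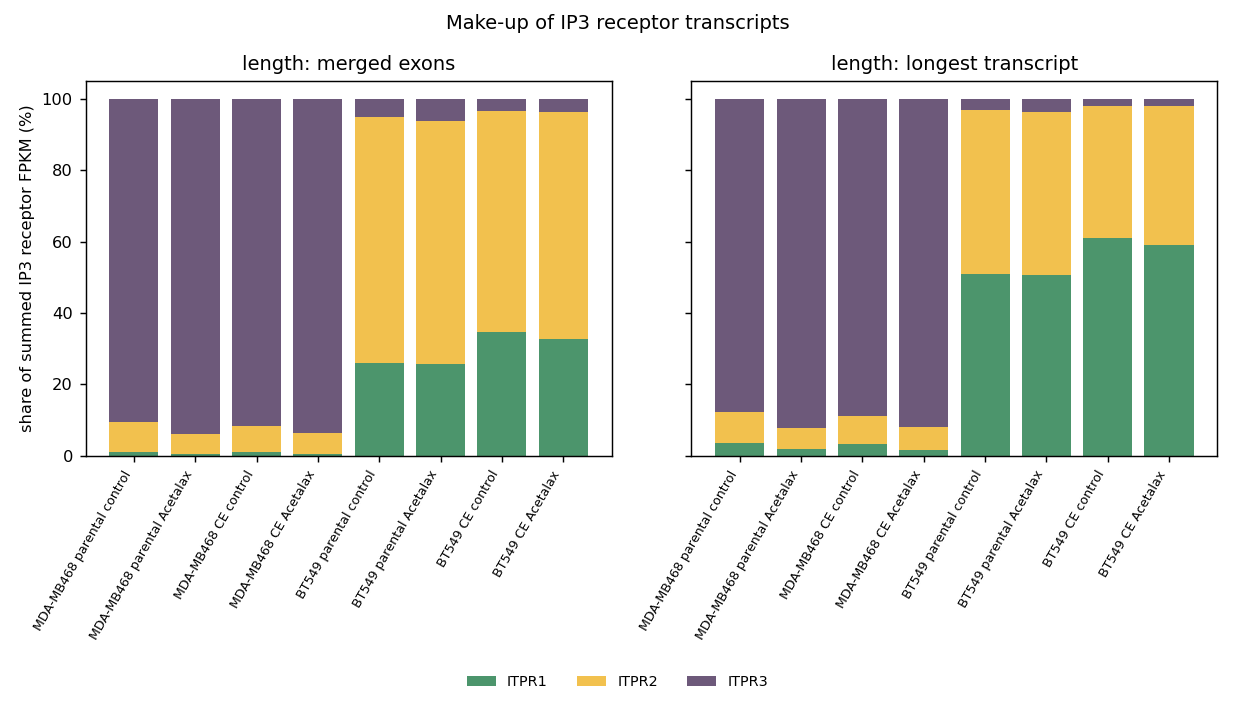
Share of the summed FPKM of the 3 IP3 receptor genes (vertical axis, percent) in each of the 8 libraries (horizontal axis), with the length taken as merged exons on the left and as the longest transcript on the right. ITPR3 fills 87.6% or more of each MDA-MB468 bar, and ITPR1 with ITPR2 fills most of each BT549 bar.

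ITPR1 and ITPR2 were lower after Acetalax in each background, as were 30.6% of the 11135 genes that averaged 5 CPM or more. The log2 ratios of ITPR1 were -0.48 (interval -0.66 to -0.29) in MDA-MB468 parental, -0.97 (interval -1.20 to -0.73) in MDA-MB468 CE, -0.43 (interval -0.54 to -0.31) in BT549 parental and -0.67 (interval -0.74 to -0.59) in BT549 CE cells. Those of ITPR2 were -0.23, -0.27, -0.43 and -0.55 in the same order. Every counting interval of both genes lay below 0. Over the 4 backgrounds the fitted change was -0.54 (SE 0.132, adjusted p = 0.0568) for ITPR1 and -0.28 (SE 0.106, adjusted p = 0.142) for ITPR2, and neither passed the test. ITPR1 passed with total counts as the scaling (adjusted p = 0.0466), without a filter (adjusted p = 0.0168) and with DESeq2 (adjusted p = 0.00591).

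ITPR3 had log2 ratios of 0.44 in MDA-MB468 parental, 0.07 in MDA-MB468 CE, -0.11 in BT549 parental and -0.53 in BT549 CE cells. The last 2 rest on counts of 88 against 84 and 130 against 84, and the interval of the BT549 parental ratio included 0. The difference of the Acetalax effect between lines, -0.52 (SE 0.212, adjusted p = 0.261), did not pass the test after adjustment.

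Of the same 11135 genes, 12.7% were higher in all 4 treated libraries than in their controls and 30.6% were lower in all 4. Of the 8 members in that set, ATP2A2 was higher in all 4 pairs and ITPR1, ITPR2 and STIM2 were lower in all 4. ORAI3 was also lower in all 4 pairs but lies under that mean level. These counts of members are near the shares over all genes and are not a result about the members.

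ORAI3 fell with Acetalax. ORAI3 forms calcium channels alone or together with other ORAI subunits. In MDA-MB468, ORAI3 was at 3.66 CPM in parental control cells, 1.50 after Acetalax, 4.05 in CE control cells and 1.72 in CE cells after Acetalax. BT549 cells had 4.02 CPM in parental control, 2.78 in parental treated, 7.85 in CE control and 3.14 in CE treated cells. The counts behind these levels were 178, 73, 179 and 82 in MDA-MB468 and 170, 121, 426 and 159 in BT549. Each treated library was below its own control, and BT549 CE control cells were the highest library. The log2 ratios were -1.28 (interval -1.70 to -0.88) in MDA-MB468 parental, -1.23 (interval -1.63 to -0.85) in MDA-MB468 CE, -0.53 (interval -0.88 to -0.19) in BT549 parental and -1.32 (interval -1.59 to -1.05) in BT549 CE cells. The treated level was thus 0.400 to 0.692 times the control level. The fitted change over the 4 backgrounds was -1.00 (SE 0.201, adjusted p = 0.0424), and its dependence on each background is given above with that of ATP2A2.

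ORAI3 (ENSG00000175938) lies on the plus strand of chromosome 16 from 30960387 to 30967782 (hg19). The lncRNA ENSG00000261487 on the same strand shares 52.9% of its exon bases and was at 0 in all 8 libraries. Reads that overlap both genes are left uncounted by the counting option used. The overlap is that of the GENCODE annotation used for lengths, and the annotation used for counting is not given. If the exons overlap there as well, the ORAI3 count stands for the remaining exon bases. Its FPKM, divided by all of them, would then be a low estimate. The RefSeq window at its start (chr16:30948818-30949117, plus strand, GRCh38.p14) is printed because ORAI3 is the other member called. None of the motifs searched was in it.

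ORAI3: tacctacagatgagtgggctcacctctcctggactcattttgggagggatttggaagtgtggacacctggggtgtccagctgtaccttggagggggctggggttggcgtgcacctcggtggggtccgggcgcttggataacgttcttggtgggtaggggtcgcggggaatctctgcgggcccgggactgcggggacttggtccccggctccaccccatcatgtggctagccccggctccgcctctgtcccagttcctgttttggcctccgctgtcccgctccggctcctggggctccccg

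**Figure D3:**
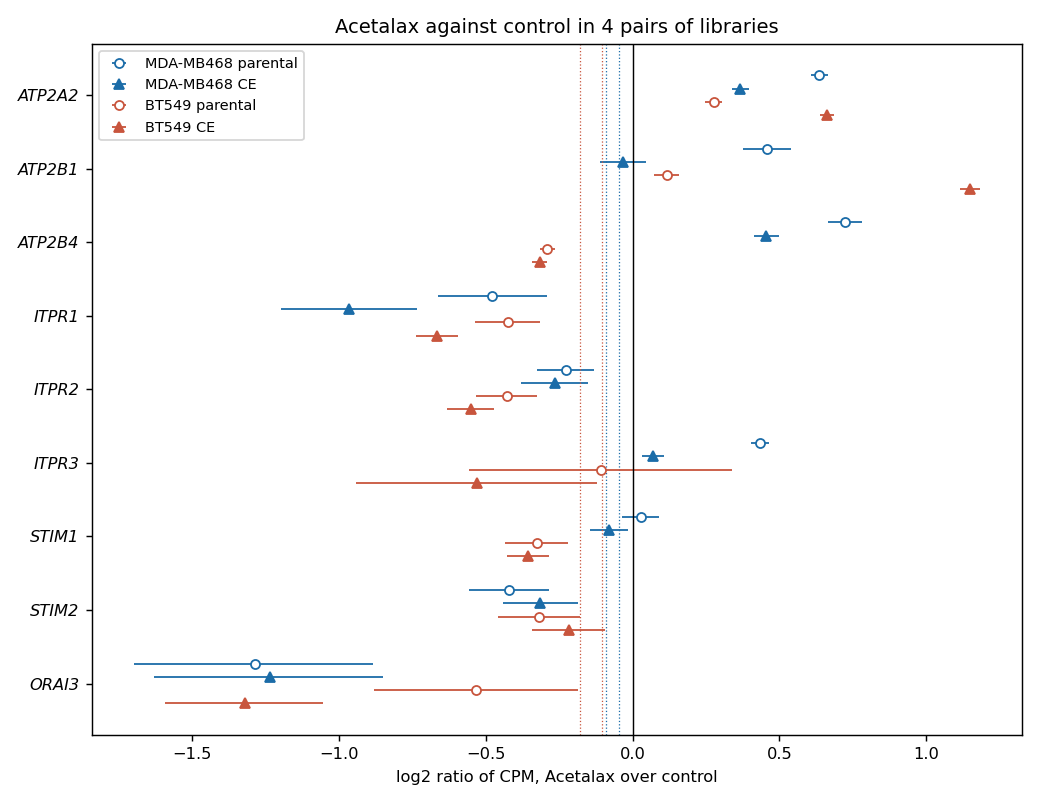
Log2 ratio of CPM, Acetalax over control (horizontal axis), for the 9 members in the 4 backgrounds, 1 pair of libraries each, with bars for the 95% counting interval and dotted lines at the median of 11135 genes in each pair. ATP2A2 lies to the right of 0 and ITPR1, ITPR2, STIM2 and ORAI3 to the left in all 4 backgrounds, and ATP2B4 is on the right in MDA-MB468 and on the left in BT549.

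Neither store sensor was called for Acetalax. In MDA-MB468, STIM1 was at 82.3 CPM in parental control cells, 83.9 after Acetalax, 86.0 in CE control cells and 81.4 in CE cells after Acetalax. In BT549 the same 4 conditions gave 37.3, 29.7, 68.0 and 53.2 CPM. STIM1 (ENSG00000167323, plus strand of chromosome 11 from 3875757 to 4114439), the main activator of ORAI channels, was within 81.4 to 86.0 CPM in all MDA-MB468 libraries, while BT549 CE cells were above BT549 parental cells with and without drug. STIM1 had Acetalax log2 ratios of 0.03 and -0.08 in MDA-MB468 and -0.33 and -0.36 in BT549, and a fitted change of -0.09 (SE 0.102, adjusted p = 0.597) over the 4 backgrounds. In MDA-MB468, STIM2 was at 21.0 CPM in parental control cells, 15.7 after Acetalax, 24.5 in CE control cells and 19.7 in CE cells after Acetalax. The BT549 libraries had 21.98 and 17.6 CPM in parental control and treated cells and 22.4 and 19.3 CPM in CE control and treated cells. STIM2 (ENSG00000109689, plus strand of chromosome 4 from 26859300 to 27027003), which responds to smaller losses of store calcium and helps to set the resting level, had the narrowest range of all members, 1.56-fold between its lowest and highest library. Its Acetalax log2 ratios were -0.42, -0.31, -0.32 and -0.22, all below 0, and the fitted change was -0.23 (SE 0.123, adjusted p = 0.271). Relative to the median of all genes in BT549 CE cells, STIM2 was at -0.04 and STIM1 at -0.18. With merged exons as the length, STIM1 made up 70.7 to 78.6% of the summed STIM FPKM in MDA-MB468 and 53.7 to 67.6% in BT549. With the longest transcript these shares were 78.7 to 84.9% and 64.0 to 76.2%.

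In single pairs, members past a log2 ratio of 0.5 in size were counted beside the shares of the 11135 genes that averaged 5 CPM or more. In MDA-MB468 they were 2 higher and 1 lower in parental cells (12.1% and 15.2% of those genes). MDA-MB468 CE cells had 0 higher and 2 lower (7.90% and 8.34%). In BT549 they were 0 higher and 1 lower in parental cells (5.51% and 14.8%), and 2 higher and 4 lower in CE cells (11.0% and 28.9%). ORAI3 lies under that mean level but is counted among the lower members in each pair.

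Whether the Acetalax effect differed between CE and parental cells was tested with the 2 lines as replicates. No gene was called by edgeR, with 91 of 19693 genes (0.462%) at an unadjusted p under 0.05, none of them a member, DESeq2 called 0 genes and edgeR without a filter 3. The 95% interval of the difference was -0.45 to 0.65 for ATP2A2, -0.66 to 1.30 for ATP2B1 and -1.44 to 0.78 for ORAI3 on the log2 scale, so differences within these ranges remain possible.

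**Figure D4:**
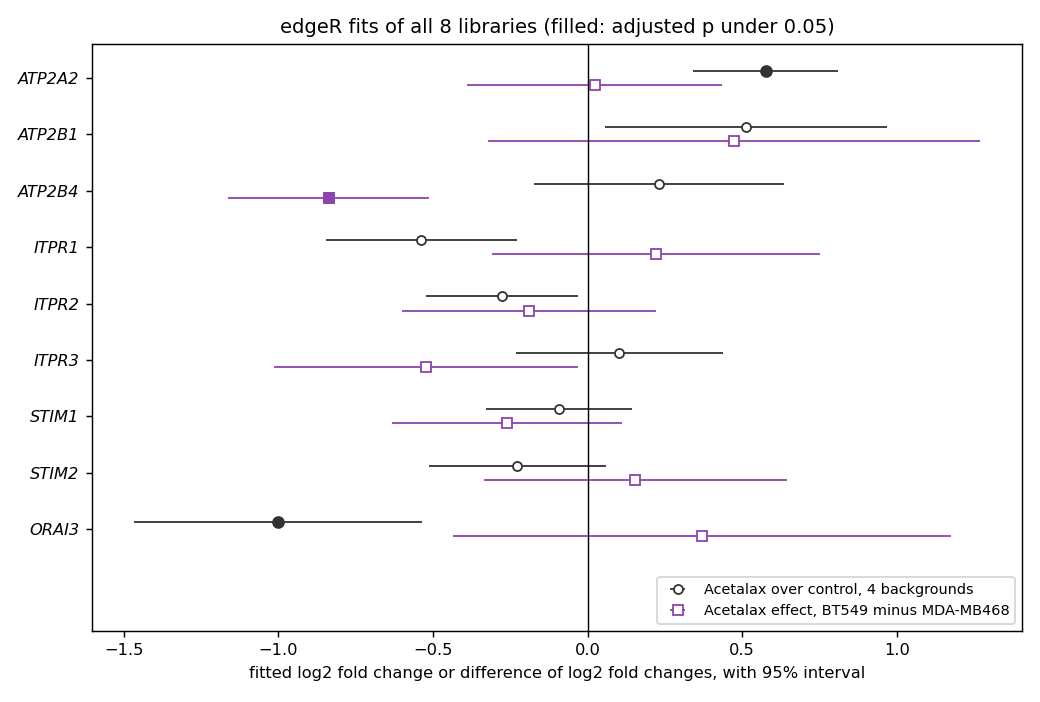
Fitted log2 fold change of Acetalax over control across 4 backgrounds (circles) and its difference between BT549 and MDA-MB468 (squares), from edgeR on all 8 libraries, with bars for the 95% interval and filled symbols for an adjusted p under 0.05. ATP2A2 and ORAI3 are filled for the Acetalax change and ATP2B4 for the difference between lines.

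CE control cells were then compared with parental control cells, which are the same control libraries as in the Acetalax ratios above. In MDA-MB468 the member that stood out was ATP2B4, with 83.3 CPM in parental and 167 CPM in CE cells, a log2 ratio of 1.01 (interval 0.95 to 1.06). ATP2B1 was at 0.45 (interval 0.37 to 0.54), ITPR2 at -0.36 (interval -0.46 to -0.26) and ITPR1 at -0.27 (interval -0.45 to -0.09). The remaining members were within -0.18 and 0.22.

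In BT549 the members that were higher in CE cells were ITPR1, ORAI3, STIM1 and ITPR2. ITPR1 had a log2 ratio of 1.13 (interval 1.04 to 1.21), ORAI3 of 0.97 (interval 0.71 to 1.23), STIM1 of 0.87 (interval 0.78 to 0.95) and ITPR2 of 0.55 (interval 0.47 to 0.64). The pumps were near their parental level in this line: ATP2A2 was at 0.10, ATP2B4 at 0.01, and ATP2B1 at -0.04, or 0.01 with TMM scaling. ITPR1 and ITPR2 were thus on opposite sides of 0 in the lines, and this difference between lines was not tested. Markers also differed between parental and CE control cells of BT549. KRT8 was at 1.25 and 34.4 CPM and KRT18 at 6.67 and 47.9 CPM. At low levels, CDH1 (0.237 and 0.959 CPM) and KRT17 (0.166 and 0.221 CPM) were also higher in CE cells. EPCAM and KRT5, at 0.189 CPM or less, were lower in CE cells. The mesenchymal markers FN1 (1629 and 593 CPM), CDH2 (223 and 110), VIM (1327 and 864) and ZEB1 (86.1 and 58.5) were lower. The part of these markers in the member levels was not tested. Past a log2 ratio of 0.5 were 1 member higher and 0 lower in MDA-MB468, and 4 higher and 0 lower in BT549. Of the 11135 genes that averaged 5 CPM or more, 6.13% and 4.83% were so in MDA-MB468 and 16.8% and 17.3% in BT549. ORAI3 is among the 4 members in BT549 but lies under that mean level.

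With the 2 lines as replicates, edgeR called 0 of 18377 genes for CE against parental control cells, with 610 (3.32%) at an unadjusted p under 0.05, none of them a member. DESeq2 called 46 genes and edgeR without a filter 45. The fitted change was 0.51 (SE 0.298, adjusted p = 0.947) for ATP2B4, 0.44 (SE 0.431, adjusted p = 0.947) for ITPR1, 0.47 (SE 0.289, adjusted p = 0.947) for STIM1 and 0.56 (SE 0.400, adjusted p = 0.947) for ORAI3.

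**Figure D5:**
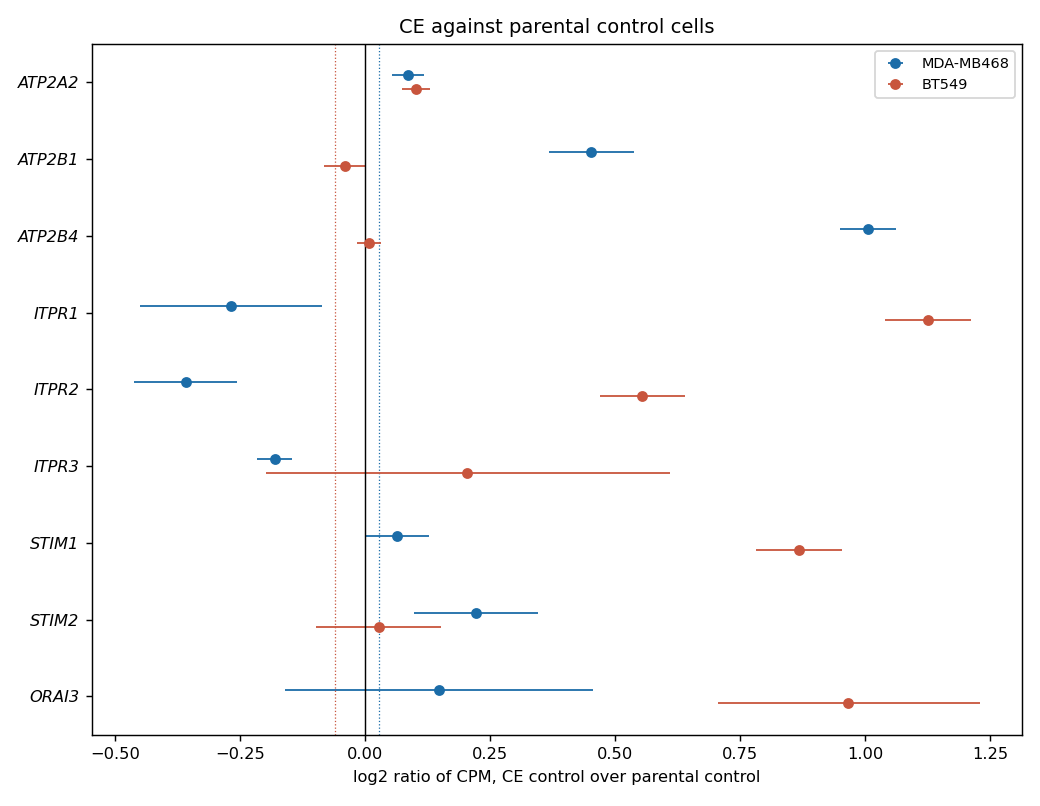
Log2 ratio of CPM, CE control over parental control (horizontal axis), for the 9 members in MDA-MB468 (blue) and BT549 (red), 1 pair of libraries each, with bars for the 95% counting interval and dotted lines at the median of all genes. ATP2B4 is farthest to the right in MDA-MB468, and ITPR1, ORAI3, STIM1 and ITPR2 are on the right in BT549.

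The lines were compared over the 4 conditions, which describes 2 cell lines and not groups of lines. edgeR called 11188 of 19693 genes (56.8%), with 27.3% of genes higher and 29.5% lower in BT549, and 7 of the 9 members. ATP2B1, with 2.36 (SE 0.243, adjusted p = 0.000440), ATP2B4, with 2.04 (SE 0.263, adjusted p = 0.00103), ITPR1, ATP2A2 and ORAI3 were higher in BT549. ITPR3 and STIM1 were lower. The CPM ranges of the lines did not overlap for ATP2B1, ATP2B4 and ITPR1, higher in BT549, nor for ITPR3 and STIM1, lower in BT549. Of the 11135 genes that averaged 5 CPM or more, 24.1% were higher and 31.6% lower in this way. At these shares over all genes, the count of members is not a result about the members.

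The smaller line differences were less stable. ATP2A2 had a fitted difference of 0.49 (SE 0.164, adjusted p = 0.0414), and the adjusted p was 0.0943 with total counts, 0.0572 with DESeq2's size factors, 0.117 without the CE Acetalax libraries, 0.122 without the CE control libraries and 0.101 without the parental control libraries. ORAI3 had 0.88 (SE 0.266, adjusted p = 0.0294), and the adjusted p was 0.0564 with total counts, 0.0791 without the CE Acetalax, 0.111 without the CE control and 0.0928 without the parental Acetalax libraries. STIM1 had -0.73 (SE 0.235, adjusted p = 0.0357), and the adjusted p was 0.121 without the parental Acetalax and 0.148 without the parental control libraries. Total counts moved the median of all genes in this comparison from -0.02 to -0.18. STIM2 had 0.18 (SE 0.154, adjusted p = 0.347). The epithelial and mesenchymal marker sums given above separated the lines in the same way, and their part in the member levels was not tested.

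Per length, ATP2A2 and ITPR3 were the most abundant members in MDA-MB468, with overlapping ranges of 24.6 to 38.2 and 26.4 to 40.5 FPKM. ATP2B4 followed at 8.77 to 24.1, STIM1 at 6.76 to 7.14 and ATP2B1 at 4.48 to 6.15 FPKM, with no overlap between neighbours. STIM2 and ITPR2 overlapped at 1.90 to 2.96 and 1.78 to 2.74, and ORAI3 (0.569 to 1.54, possibly a low estimate) and ITPR1 (0.157 to 0.369) were lowest. In BT549 the pumps led, with ATP2B4 at 50.1 to 62.4, ATP2A2 at 30.9 to 52.5 and ATP2B1 at 20.4 to 45.4 FPKM, and each of these overlapped the next. STIM1, ITPR2, STIM2, ORAI3 and ITPR1 lay between 0.827 and 5.65 FPKM and overlapped with their neighbours, and ITPR3 was lowest at 0.168 to 0.243 FPKM. With the longest transcript as the length, ITPR1 moved from the eighth to the fifth place in BT549, and the medians of STIM1 and ATP2B4, whose ranges then overlapped, changed order in MDA-MB468.

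The genes most like the 3 members of widest range were sought by Pearson's r of log2 CPM over the 8 libraries among 11135 genes. The libraries form 2 clusters, 1 for each line, so r is only a measure of likeness here. ITPR3 was followed by ZFP42, MYH14 and MTUS1 (r of 0.999 each), all at 0.111 CPM or less in BT549. ITPR1 was followed by OLFML2B (0.991), EEA1 (0.990) and PJA2 (0.990), and ATP2B1 by TM9SF3 (0.996), DIS3 (0.992) and CSNK1G1 (0.990).

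The other genes of the pathway were read from 7 lists of pumps and exchangers, release regulators, entry regulators, IP3 metabolism, mitochondrial uptake, calcium-binding chaperones and calcineurin signalling. Of 101 genes with a row, 91 were tested for Acetalax over the 4 backgrounds, and 3 rose and 4 fell, 7.69% against 5.00% of all genes. Without MDA-MB468 parental cells the test called 0 genes, with 3491 at an unadjusted p under 0.05, so none of these 7 calls held there. None of 7 pumps and exchangers, 16 release regulators, 9 entry regulators or 12 mitochondrial uptake genes was called. Their median log2 fold changes were -0.20, 0.05, -0.03 and 0.03, beside -0.04 over all genes tested. Of the pumps, the Golgi pump ATP2C2 was at -0.20 (SE 0.146, adjusted p = 0.420). Of the mitochondrial genes, the outer membrane channels VDAC3 and VDAC2 were at -0.19 (SE 0.0912, adjusted p = 0.230) and 0.18 (SE 0.0835, adjusted p = 0.200), and MICU2, a subunit of the uniporter, was at -0.10 (SE 0.107, adjusted p = 0.605).

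Among 13 calcium-binding chaperones and folding enzymes of the endoplasmic reticulum, 2 rose and none fell, with a median of 0.21. HSPA5 (BiP), the main chaperone of this compartment, was at 484 and 1062 CPM before and after Acetalax in MDA-MB468 parental, 509 and 983 in MDA-MB468 CE, 986 and 1348 in BT549 parental and 1459.9 and 3985 in BT549 CE cells. Its fitted change was 1.09 (SE 0.157, adjusted p = 0.0313). HSP90B1 (GRP94), another chaperone that binds calcium, changed by 0.39 (SE 0.0813, adjusted p = 0.0431). The HSPA5 call was lost without MDA-MB468 parental cells (adjusted p = 0.170) and held without each other background. That of HSP90B1 was lost without any 1 background (adjusted p of 0.0640 to 0.184) and with total counts as the scaling (adjusted p = 0.0513). Calreticulin (CALR), the main calcium buffer of the store, was at 0.32 (SE 0.0772, adjusted p = 0.0545) and did not pass. As with ATP2A2, the largest HSPA5 ratio was in BT549 CE cells and the smallest in BT549 parental cells. The same held for HSP90B1, while CALR had its largest ratio in MDA-MB468 CE cells (0.42) and its smallest in MDA-MB468 parental cells (0.16). BT549 parental cells also had the smallest share of genes with a log2 ratio of 0.5 or more, 5.51% of 11135. A link between these genes was not tested.

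Of 18 genes that make or remove IP3, 3 fell and none rose, with a median of -0.10. They were the phospholipase C genes PLCD1, with -0.79 (SE 0.161, adjusted p = 0.0424), PLCH1, with -1.83 (SE 0.336, adjusted p = 0.0415), and PLCD4, with -1.37 (SE 0.305, adjusted p = 0.0476). Leaving out 1 background ended the calls of PLCD1 (adjusted p of 0.0515 to 0.178) and PLCD4 (adjusted p of 0.0521 to 0.190) in each case, and that of PLCH1 in all cases but BT549 CE cells (adjusted p = 0.0420 without them, otherwise 0.0662 to 0.245). PLCE1, another phospholipase C gene, was at -0.48 (SE 0.118, adjusted p = 0.0559), and INPP5A, which removes a phosphate from IP3, at 0.41 (SE 0.128, adjusted p = 0.0914). Of 16 genes of calmodulin, calcineurin and NFAT, the calcium-activated transcription factor NFATC2 rose by 1.30 (SE 0.277, adjusted p = 0.0445) and NFATC3 fell by 0.64 (SE 0.135, adjusted p = 0.0432), with a median of 0.05 over the list. The NFATC3 call was lost without any 1 background (adjusted p of 0.0597 to 0.178), and that of NFATC2 held, among the fits with 1 background left out, only without BT549 parental cells (adjusted p = 0.0437, otherwise 0.0640 to 0.184) and lost with total counts (adjusted p = 0.0505). CABIN1, an inhibitor of calcineurin, was at -0.40 (SE 0.107, adjusted p = 0.0668).

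Of the regulators closest to the members, RNF170, a ubiquitin ligase of IP3 receptors, was at -0.62 (SE 0.150, adjusted p = 0.0546), its partner ERLIN2 at -0.20 (SE 0.105, adjusted p = 0.251), and TMBIM6, an endoplasmic reticulum membrane protein that affects store calcium, at 0.29 (SE 0.0906, adjusted p = 0.0930). ESYT2, which tethers the endoplasmic reticulum to the plasma membrane, was at -0.23 (SE 0.0841, adjusted p = 0.129), and TMEM66 (SARAF), a brake on STIM1, at -0.10 (SE 0.0843, adjusted p = 0.495). None of these passed the test, and their sign in the 4 pairs was part of the rule that chose them. The difference of the Acetalax effect between lines was called for PLCB2 alone of the 91 genes, with -2.26 (SE 0.399, adjusted p = 0.0428), and that call was lost without MDA-MB468 CE (adjusted p = 0.101) or MDA-MB468 parental cells (adjusted p = 0.145).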

How the data were processed

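PolyA-selected RNA of 8 cell line samples was sequenced as 101-base pairs. The authors aligned reads to hg19 with STAR (2.7.11b in the submitters' processing notes, another version in the methods) and deposited the unnormalized read counts that STAR's GeneCounts mode gives for each gene. Which annotation and which strand column were used is not given in the sources used here, so reads of genes overlapping on opposite strands cannot be separated with certainty, and reads on 2 genes or with several placements are not counted.

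The table had 58154 rows for 55679 identifiers. Of these, 1392 were listed more than 1 time and each was kept 1 time; the repeats differed for 3. Symbols turned into dates were restored for 28 genes. Libraries had 42261122 to 54241728 counts on genes, and all pairs of libraries differed by more than sampling noise (smallest chi-square per degree of freedom 39.5).

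CPM used total counts on genes. FPKM used exon lengths of an hg19 GENCODE annotation. Ratios of CPM had no pseudocount. The authors' log2(FPKM + 1) difference was an alternative. Tests were edgeR's quasi-likelihood tests (edgeR 4.0.16, R 4.3.3, TMM, filterByExpr, Benjamini-Hochberg over all genes tested, threshold 0.05), fitted on the whole table after checks on simulated data, with an intercept for each background and an Acetalax term over the 8 libraries, interaction terms for line or state, CE and line terms over the 4 control libraries, or a line term over the 4 conditions. Standard errors are the fold change divided by the root of the F statistic. Alternatives were other scalings, no filter, DESeq2 1.42.0, other units and lengths, a fold threshold of 1, and leaving out backgrounds or conditions; leaving out backgrounds in the interaction fits was chosen after seeing the data.

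The members and the gene lists were chosen with earlier results of these data known. Named are all members; of each other list at most 3 genes that averaged 5 CPM or more and had the same sign in all 4 Acetalax pairs, by the largest smallest ratio; and the 3 genes most like each of the 3 members of widest range. PLCH1, PLCD4, PLCB2 and UQCC2 lie outside this rule and were named after their values were seen. A single library was made per condition, and separate cultures are not described, so p-values measure the spread between these libraries.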

Additional observations from a re-analysis of the deposited data

Results flagged for a closer look

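ATP2B4 stood out because its Acetalax effect differed between the lines: the interaction term was -0.84 on the log2 scale (edgeR, adjusted p = 0.0420), and both MDA-MB468 ratios (0.72 in parental and 0.45 in CE cells) were above 0 while both BT549 ratios (-0.29 and -0.32) were below 0. The call was lost without either MDA-MB468 background, as given in the report.

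ITPR3 had MDA-MB468 ratios above 0 (0.44 in parental and 0.070 in CE cells) and BT549 ratios below 0 (-0.11 and -0.53). The difference between lines was tested and did not pass (edgeR, adjusted p = 0.261), and the BT549 values rest on 84 to 130 counts per library.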

How the results depend on the processing

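The Acetalax tests set each treated library against the control of its own background. No further pairing could be fitted, since the labels give no replicate numbers. Genes called for Acetalax over 4 backgrounds (984) were 3585 without a filter, 2678 with DESeq2, 0 in parental or CE backgrounds alone and 0 to 554 when a background was left out; members called were 4 without a filter, 0 in parental or CE backgrounds alone, and 0 when any background was left out. ITPR3 turned to -0.082 in CE backgrounds alone and was -0.055 to 0.24 when a background was left out. For the line difference of the Acetalax effect, genes called (351) were 1632 without a filter, 926 with DESeq2 and 100 to 1360 when a background was left out, and members called were 0 to 2; ATP2A2 turned to -0.031 with total counts, and when a background was left out ATP2A2 was -0.22 to 0.23, ATP2B1 -0.090 to 1.01 and ITPR1 -0.0045 to 0.47. For the CE difference of the Acetalax effect, genes called were 3 without a filter and 0 to 2 when a background was left out; ITPR2 turned to 0.019 without a filter and 0.011 with DESeq2, STIM1 to 0.0083 with DESeq2's size factors, 0.030 without a filter and 0.022 with DESeq2. When a background was left out, that difference was -0.11 to 0.35 for ATP2A2, -0.30 to 1.01 for ATP2B1, -0.64 to 0.44 for ATP2B4, -0.17 to 0.10 for ITPR2, -0.23 to 0.19 for STIM1 and -0.66 to 0.018 for ORAI3. For CE against parental cells, genes called were 45 without a filter, 46 with DESeq2 and 23 over all 8 libraries, and ITPR3, near 0, turned to 0.0040 with DESeq2's size factors and 0.0049 without a filter. Members past the fold were 1 in MDA-MB468 parental, 1 in MDA-MB468 CE, 0 in BT549 parental and 2 in BT549 CE pairs, and 1 for CE against parental BT549 cells, at a log2 threshold of 1; 1, 0 and 3 in MDA-MB468 CE, BT549 parental and BT549 CE pairs as log2(FPKM + 1); and 0 in BT549 parental pairs with TMM or a pseudocount of 1 CPM. The cause of these changes was not tested. Over all results and settings, 560 kept their direction and side of the threshold or stayed near the reported value, 24 turned, 26 lost and 6 gained a call, and 88 values or counts moved. Where a background was left out, the line left with a single pair is assumed to vary like the other. At this depth 1 CPM rests on at least 42 counts, and ITPR3 in BT549 and ORAI3 had the fewest counts.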
